A study of Drosophila melanogaster with 8 samples.

Results

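The genes of chromosome 4, the small dot chromosome of *Drosophila melanogaster*, were examined for contacts of RNase H1 in wing imaginal discs. A gene was taken as a member when the authors' gene table of either genotype gives it a peak on chromosome 4. The gene *ci*, genes with a CR number and genes of ribosomal proteins and eIF translation factors were not taken. This selected 61 of the 9826 genes that the tables hold. They comprised 58 protein-coding genes, a miRNA gene, a snoRNA gene and a lncRNA gene, of 114 genes annotated on the chromosome. Another 22 listed genes of chromosome 4 were left out, of which 19 have CR numbers.

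Chromosome 4 is unusual in that its genes are embedded in heterochromatin rich in repeats and bound by HP1a, and yet many of them are transcribed. The chromosome-specific protein POF binds its active genes, and the arm normally undergoes no crossing over. It carries developmental regulators of the eye, the wing and the nervous system and several ligands of the TGF-beta family.

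Binding was mapped by Targeted DamID, in which a DNA adenine methylase (Dam) fused to a protein methylates GATC sites near the places the protein contacts. RNase H1 recognises RNA:DNA hybrids. The 3 ecd1 libraries of Dam-RNase H1 and 1 ecd1 library of Dam alone came from larvae with ecd1, a temperature-sensitive allele of *ecd*, which acts in ecdysone synthesis and pre-mRNA splicing. The 3 control libraries of Dam-RNase H1 and 1 control library of Dam alone came from larvae without that allele. All groups expressed the Dam construct from a UAS transgene under *nub*, a driver of the wing region, with heat-sensitive Gal80 repressing it at 25 °C. All larvae spent 24 h at 29 °C from day 6 and were dissected on day 7 after egg laying, so in ecd1 the loss of the mutant protein's function and the switch-on of Dam coincided. The signal sums over all cells of the disc that used the driver, so a change in their number and a change per cell cannot be told apart.

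The files hold 1 list of all peaks and 1 table of a single peak per gene for each genotype. They also hold 1 table of regions higher in ecd1 and 1 table of regions higher in control. There are no values per library, so no height has a replicate error, the depth is unknown and nothing below is a test. Peak heights are scores of the authors with no scale given, and the lists of the genotypes were made separately. Coordinates are on BDGP6, release 6 of the genome, and gene spans come from RefSeq.

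Every differing region listed for the chromosome 4 genes was higher in ecd1. The authors' deposited table of that direction names 22 of the 61 genes (36.1%, 95% Wilson interval 25.2 to 48.6, counting error only), against 57.1% of all 9826 genes. The authors' deposited table of regions higher in control names none of the 61, against 22.1% of all genes. A count of 0 would allow a share of up to 4.92%, but only if the genes were separate counts and chromosome 4 was compared in that direction. As listed, both shares were below those over all genes. The 22 genes share 20 distinct regions, whose heights in the authors' deposited table ran from 0.39 to 1.22 with a median of 0.645, against 0.74 over all 4083 regions higher in ecd1. The chromosome 4 genes are long, with a median span of 11301 bp against 2242 bp over the 9782 listed genes that could be matched. Among genes of at least 10000 bp the authors' deposited tables name 15 of 35 chromosome 4 genes as higher in ecd1 and 0 as higher in control, where the shares over all 1599 such genes were 76.4% and 42.2%.

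The absence of regions higher in control held for the whole chromosome. Whether the authors' comparison covered chromosome 4 in that direction cannot be seen from the files. The authors' deposited tables used here place 25 distinct regions higher in ecd1 and 0 higher in control on chromosome 4. On the other arms the authors' deposited tables place 4058 higher in ecd1 and 1628 higher in control, and the ecd1 share of the regions ran from 68.9% on 2L to 73.3% on X. Proximal parts of the large arms, which are also heterochromatic, were set beside chromosome 4 with approximate borders (2L beyond 22 Mb, 2R up to 6 Mb, 3L beyond 23 Mb, 3R up to 4 Mb, X beyond 22 Mb). There the order was the other way round. The authors' deposited tables give 60 regions higher in ecd1 and 69 higher in control in those parts. The authors' deposited tables name 35.3% of the 167 listed genes there as higher in ecd1 and 38.9% as higher in control. These contrasts between arms were not tested.

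**Figure D1:**
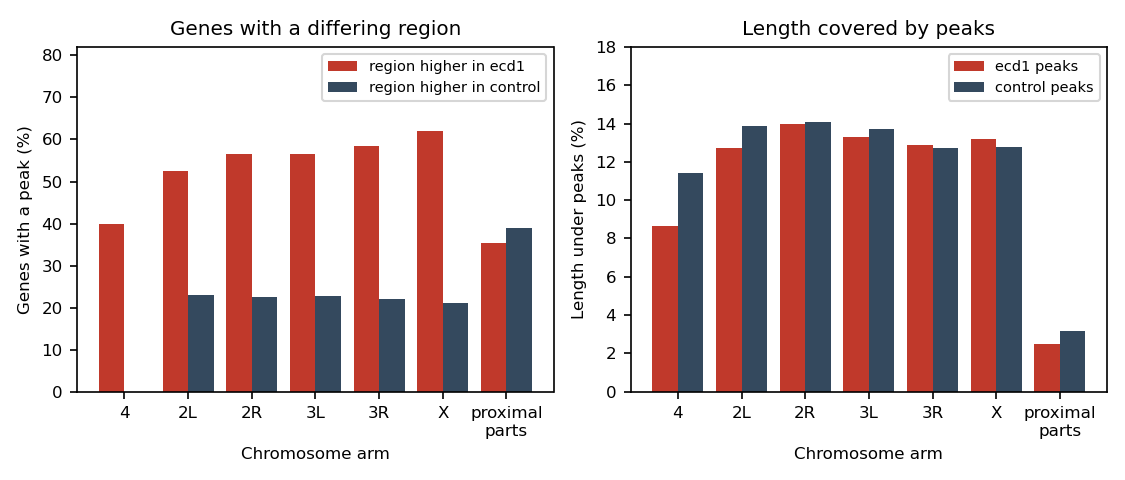
Left, share of genes with a peak (percent of genes in the authors' gene tables) that have a region higher in ecd1 (red) or in control (dark blue), by chromosome arm and for the proximal parts of the large arms together; right, share of the annotated length under ecd1 (red) and control (dark blue) peaks. All 83 listed genes of chromosome 4 are counted here: 39.8% have a region higher in ecd1 and none has a region higher in control, and peaks cover 8.63% of the arm in ecd1 and 11.4% in control.

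Peaks themselves were listed for more of these genes in control than in ecd1. Of the 61, 47 are in the ecd1 gene table and 55 in the control gene table. Both tables hold 41 (67.2%, against 73.4% of all genes), 6 genes were listed in ecd1 only (9.84% against 15.7%) and 14 in control only (23% against 10.9%). None of the 14 genes listed in control only had a region higher in control, which follows from the absence of such regions on the whole chromosome. The listed heights of the chromosome 4 genes ran from 0.55 to 2.67 in ecd1 (median 1.14, against 1.21 over all listed genes) and from 0.43 to 2.17 in control (median 0.94, against 0.95). Of the 41 genes in both tables, 31 had the taller listed peak in ecd1, 9 in control and 1 had equal heights, with a median difference of 0.26. Over all 7212 genes in both tables the ecd1 peak was taller for 79.7%, with a median difference of 0.28. For 11 of the 41 genes the tables list peaks at different places, so the difference of their listed heights is not a change at 1 site.

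**Figure D2:**
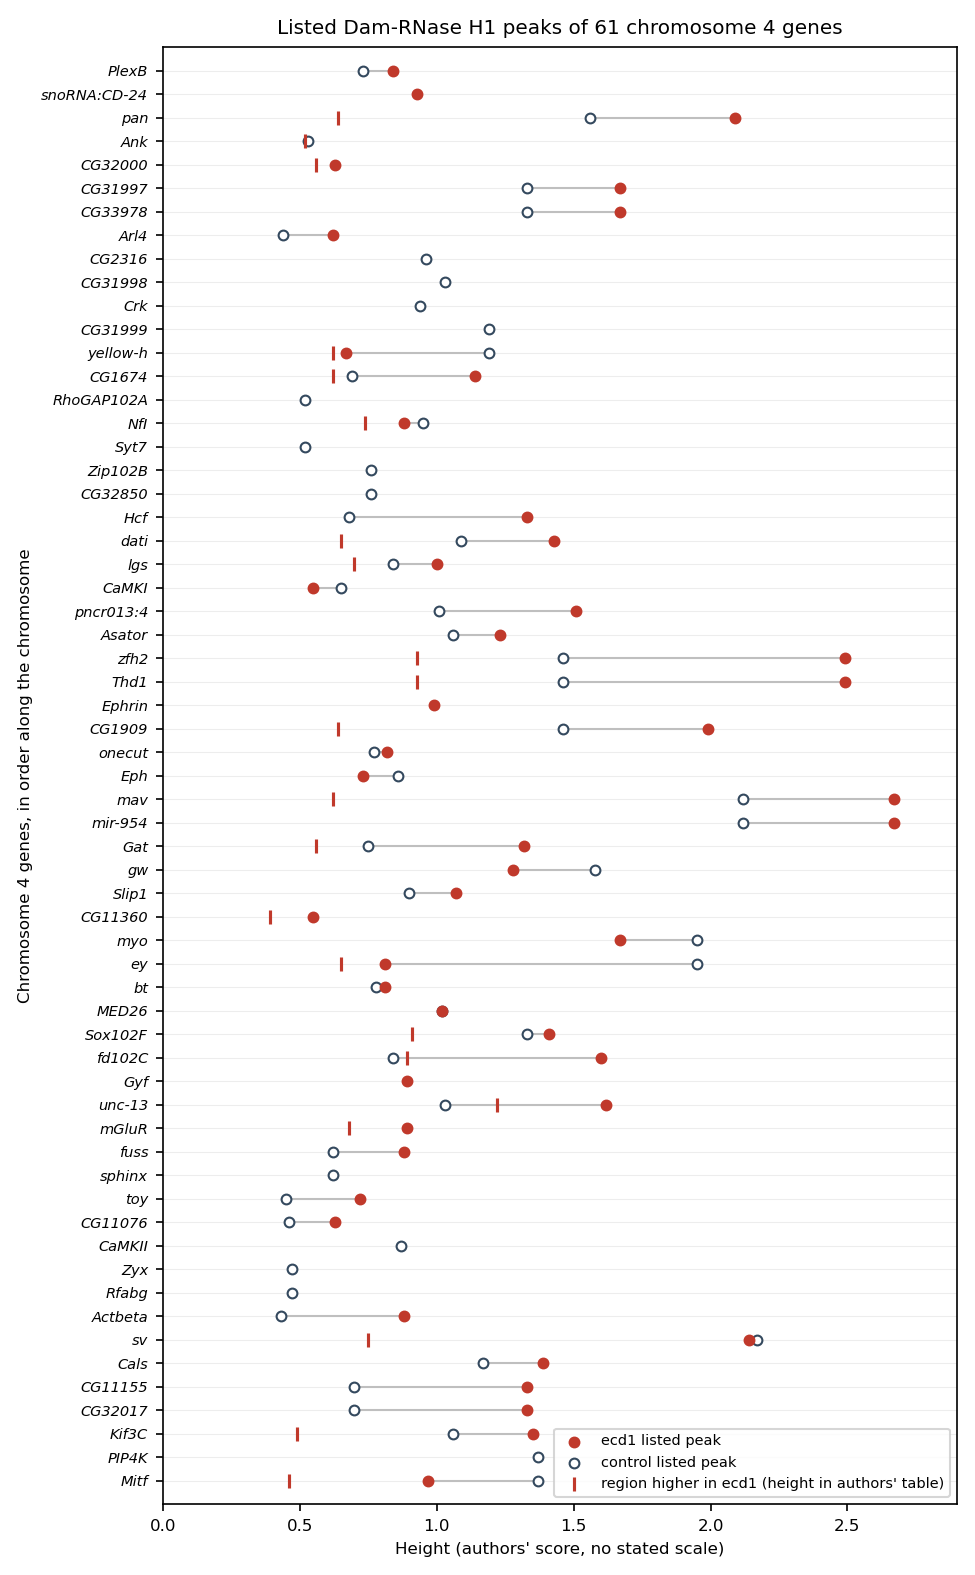
Heights (authors' score, horizontal axis) of the listed ecd1 peak (red dots), the listed control peak (open circles) and the region higher in ecd1 (red bars) for the 61 chromosome 4 genes, in their order along the chromosome; a gene in 1 table has 1 symbol, and grey lines join the listed peaks of a gene. *mav* and *mir-954* share the tallest ecd1 peak at 2.67, *sv* has the tallest control peak at 2.17, and the ecd1 and control symbols of *MED26* coincide at 1.02.

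Of the lists of genes by function, transcription factors had the highest count of genes with a region higher in ecd1. All 13 genes of this list had a peak in both tables, against 73.4% of all genes. The authors' deposited table names 10 of the 13 as higher in ecd1, against 57.1% of all genes and 76.4% of genes of at least 10000 bp. They are long, with a median span of 19966 bp, and 9 of them reach 10000 bp. *zfh2* (FBgn0004607, 4:501810-540874), a zinc finger homeodomain gene that patterns the proximal wing, lay under 7 ecd1 peaks of heights 0.46 to 2.49 and 5 control peaks of heights 0.5 to 1.46. The tallest stood at the same place in both lists, at 2.49 in ecd1 (4:516230-518504) and 1.46 in control (4:516230-518765). Inside it the authors' deposited table puts a region of 0.93 (4:517119-517444). The total under peaks was similar, 27.9% of *zfh2* in ecd1 and 30.1% in control.

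*Sox102F* (FBgn0039938, 4:800436-834393), a Sox family gene, had 5 peaks in each genotype, of heights 0.83 to 2.45 in ecd1 and 0.6 to 2.08 in control. Its tallest peak lay at the right end of the gene, at 2.45 in ecd1 (4:831907-834751) and 2.08 in control (4:832018-834198), and a region of 0.91 is listed there in the authors' deposited table (4:832018-833126). At its other end, a peak with the same ends in both genotypes (4:801495-802748) was nearly equal, at 1.41 in ecd1 and 1.33 in control. The gene tables list this lower peak for *Sox102F*, so the listed peak is not always the tallest over a gene. The neighbouring forkhead gene *fd102C* (FBgn0039937, 4:836986-844529) had a peak of 1.6 in ecd1 and 0.84 in control. Its region of 0.89 in the authors' deposited table spans 4:837344-837593, near the left end of the gene.

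*pan* (FBgn0085432, 4:69326-114270) encodes the TCF factor of Wingless signalling, and *lgs* (FBgn0039907, 4:436957-443911) encodes its co-factor Legless. At the left end of *pan*, 1 control peak of height 1.56 (4:68251-73946) faced ecd1 peaks of 2.09 (4:68251-71454) and 1.76 (4:72515-73325). The authors' deposited table gives 0.64 for the outer part of this site (4:68251-69678). An ecd1 peak of 0.71 at the far end of *pan* met no control peak. For *lgs* the lists disagree in place. The ecd1 peak of 1.0 lay 371 bp to the left of the gene (4:436070-436586), where the control list has none and the authors' deposited table gives 0.70. The control peak of 0.84 lay over its right end (4:443431-446421), where the ecd1 list has none.

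The Pax genes differed from each other. *sv* (FBgn0005561, 4:1088798-1113317), the Pax2 gene of sensory organs, had about the same height in both genotypes, 2.14 in ecd1 (4:1087775-1089736) and 2.17 in control (4:1088347-1089736). A region of 0.75 in the authors' deposited table still spans the whole ecd1 peak, which began further left than the control peak. *ey* (FBgn0005558, 4:697689-721173), a Pax6 gene that directs eye development, had an ecd1 peak of 1.26 inside the gene (4:703371-705157) that met no control peak. The authors' deposited table gives 0.65 on that interval. Elsewhere in *ey* the heights were equal, at 0.81 in ecd1 (4:716673-718372) and 0.81 in control (4:716962-718581). The control height of 1.95 listed for *ey* belongs to a peak 428 bp outside it that lies over *myo*. *toy*, the other Pax6 gene, had an ecd1 peak of 0.72 and control peaks of 0.45 and 0.65, none of which met a peak of the other genotype, and no differing region.

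Among the remaining transcription factors, *dati*, a zinc finger gene, had 5 ecd1 and 3 control peaks over its span, the tallest at 1.43 in ecd1 and 1.09 in control. At its left end, shared with *Hcf*, a peak stood at 1.33 in ecd1 (4:375492-376623) and 0.68 in control (4:375432-377531). The authors' deposited table assigns the region of 0.65 there to *dati* and not to *Hcf*, which encodes a chromatin-associated host cell factor. An ecd1 peak of 0.68 inside *dati* (4:390876-391477) met no control peak. The region of 0.48 on it is assigned to the left-out *CR44027*. *NfI*, the nuclear factor I gene, had peaks that pointed both ways. A peak beside the gene was 1.19 in ecd1 and 0.71 in control, with a region of 0.74 in the authors' deposited table, whereas a peak with identical ends inside *NfI* (4:272575-273950) was 0.63 in ecd1 and 0.95 in control. *Mitf*, which controls lysosomal genes, had an ecd1 peak of 0.97 at its right end (4:1222134-1222670), with a region of 0.46 in the authors' deposited table. A control peak of 1.37 lay over its left end (4:1197635-1199449). *onecut* and *fuss*, a homeodomain gene and a gene of the Ski/Sno family, had no differing region. Their shared peaks stood at 0.82 in ecd1 and 0.85 in control for *onecut*, and at 0.88 in ecd1 and 1.09 in control for *fuss*.

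Genes of ligands, receptors and signal transduction mostly lacked a differing region. Of 13 members, 7 were in both tables (73.4% of all genes), 1 in ecd1 only (15.7%) and 5 in control only (10.9%). The authors' deposited table names 1 of the 13 as higher in ecd1, against 57.1% of all genes. The ligand gene *mav* (FBgn0039914, 4:623219-626031), which encodes the TGF-beta relative Maverick, had the tallest ecd1 peak of the chromosome at 2.67 (4:624249-626576). The control peak there was 2.12 (4:624249-627262), and the authors' deposited table gives 0.62 (4:624249-625657). The peak also covers the miRNA gene *mir-954*, for which no differing region is listed. *myo*, which encodes the TGF-beta ligand Myoglianin, was the other way round, with 1.67 in ecd1 and 1.95 in control on the same interval (4:694987-697261). *Actbeta*, which encodes the activin ligand, had 0.88 in ecd1 and 0.43 in control on the same interval (4:1079966-1080840). Neither *myo* nor *Actbeta* has a differing region, so of these 3 ligand genes only *mav* was called by the authors.

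The receptor genes of this list were *PlexB* and *Eph*, with peaks below 1 in height. *PlexB*, a semaphorin receptor gene, had 0.84 in ecd1 and 0.73 in control, and *Eph* had 0.73 in ecd1 and 0.86 in control. *Ephrin*, which encodes the ligand of Eph, had an ecd1 peak of 0.99 and none in control. Of the kinases and small GTPases, *Asator* had 1.23 in ecd1 and 1.06 in control. *Arl4* had an ecd1 peak of 0.62 beside the gene and a control peak of 0.44 over most of it.

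The 5 signalling genes listed in control only were *Crk*, *RhoGAP102A*, *CaMKII*, *Zyx* and *PIP4K*. *Crk*, an adaptor of receptor tyrosine kinase signalling, had a control peak of 0.94 (4:210241-211240), *CaMKII* had 0.87 (4:1050558-1051229) and *RhoGAP102A* had 0.52. The peak listed for *PIP4K*, a phosphoinositide kinase gene, is the 1.37 peak over the left end of *Mitf*, 787 bp away. This is the tallest control peak of chromosome 4 that met no ecd1 peak. The peak of 0.47 listed for *Zyx*, the zyxin gene, lies 3018 bp away inside *Rfabg*, the apolipophorin gene, which is also listed in control only.

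Genes with neuronal functions were fixed as a list because disc epithelium is a candidate for low expression of them, and expression was not measured. Of 7 members, 5 were in both tables, against 73.4% of all genes. The authors' deposited table names 4 of the 7 as higher in ecd1, against 57.1% of all genes. *onecut*, which has no differing region, was also fixed for this list but was counted only among the transcription factors. Of the 7 genes, 6 reach 10000 bp, a length at which 76.4% of all genes were named. *unc-13* (FBgn0025726, 4:867824-912331), a synaptic vesicle priming gene, had 4 ecd1 and 3 control peaks over its span. Over its right end stood a peak of 1.6 in ecd1 (4:909282-913093) and 1.03 in control (4:909775-911804), and 791 bp beyond that end a peak of 1.62 in ecd1 (4:913122-914727) and 0.91 in control (4:913122-914290). In the authors' deposited table, a region inside *unc-13* has 1.44 (4:909344-911315) and is assigned to the left-out *CR43361*. The region beyond the end has 1.22 (4:913122-913826), overlaps no gene and is assigned to both *unc-13* and the left-out *eIF4G*. These regions of 1.44 and 1.22 are the tallest of the 25 regions of the chromosome. *mGluR*, the metabotropic glutamate receptor gene, had ecd1 peaks of 0.89 and 0.55, no control peak and a region of 0.68 in the authors' deposited table. *Gat*, a GABA transporter gene, had 1.32 in ecd1 and 0.75 in control, with 0.56 in the authors' deposited table.

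*Kif3C*, a kinesin gene, had 1.35 in ecd1 and 1.06 in control on the same interval, with a region of 0.49 in the authors' deposited table, and further ecd1 peaks of 0.73 and 0.37. *Cals*, the calsyntenin gene, had 1.39 in ecd1 and 1.17 in control on the same interval and no region. Over *CG11155*, which encodes an ionotropic glutamate receptor of the kainate type, a peak with the same ends was 0.75 in ecd1 and 1.04 in control. The peak listed for *CG11155*, of 1.33 in ecd1 and 0.7 in control, lies inside the neighbouring *CG32017*. *Syt7*, a synaptotagmin gene, had a control peak of 0.52 and no ecd1 peak.

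Among metabolic and housekeeping genes the authors' deposited table names 3 of 5 as higher in ecd1, close to the 57.1% of all genes, and 1 of the 3 is listed for a region far outside it. *Thd1*, the thymine DNA glycosylase gene, is listed for the tall *zfh2* peak, 19828 bp from its span in the annotation used here. The peak over *Thd1* itself was 0.56 in ecd1 and 0.58 in control. *Ank*, which encodes an ankyrin, had a region of 0.52 in the authors' deposited table (4:115201-115506) where neither list has a peak, and a control peak of 0.53 elsewhere. *yellow-h* had an ecd1 peak of 0.67 (4:228649-229200) with a region of 0.62 in the authors' deposited table on that interval. A control peak of 1.19 next to it (4:226644-228445) met no ecd1 peak. *Zip102B*, a zinc transporter gene, was listed in control only, at 0.76, for a peak that lies 652 bp away over *CG32850*.

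The lists of RNA regulators (*gw* and *Gyf*) and of general transcription genes (*Hcf* and *MED26*) have 2 members each, too few to set against the 57.1% of all genes named as higher in ecd1 and the 22.1% named as higher in control. No differing region is listed for them. *gw*, which encodes the GW182 protein of miRNA silencing, was among the few with the taller peak in control, at 1.28 in ecd1 (4:658840-661809) and 1.58 in control (4:658840-661752). *Gyf*, a translation repressor gene, had 0.89 in ecd1 and no control peak. *MED26*, a Mediator subunit gene, had 1.02 in both genotypes. The muscle gene *bt*, which encodes a giant sarcomere protein and spans 52075 bp, had 5 ecd1 peaks of heights 0.62 to 0.85 and 4 control peaks of heights 0.67 to 1.02. Of the ecd1 peaks of *bt*, those of 0.62 and 0.81 met a control peak, of 0.78 and 0.67.

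Of the other 18 genes, the authors' deposited table names 4 as higher in ecd1, against 57.1% of all genes, among them *CG1909* (FBgn0039911, 4:583108-589348). Its peak had the same ends in both lists (4:588507-589049), with 1.99 in ecd1 and 1.46 in control, and a region of 0.64 in the authors' deposited table. *CG1674* had 1.14 in ecd1 and 0.69 in control on the same interval, yet the region listed for it in the authors' deposited table is the 0.62 region of *yellow-h*, 1530 bp outside the gene. *CG32000*, a cation-transporting ATPase gene, and *CG11360* had peaks in ecd1 only, at 0.63 and 0.55, with regions of 0.56 and 0.39 in the authors' deposited table. Tall peaks without a region were those listed for *CG31997* and *CG33978*, of 1.67 in ecd1 and 1.33 in control. The ecd1 peak lies 982 bp from *CG33978*, which only the control peak reaches. Another was that of *pncr013:4*, annotated as *CG33941*, with 1.51 in ecd1 and 1.01 in control. *Slip1* had 1.07 in ecd1 and 0.9 in control, and *CG11076* 0.63 in ecd1 and 0.46 in control. *CaMKI* was listed at 0.55 in ecd1 and 0.65 in control for a peak 1754 bp away. The control peak of 0.84 at the right end of *lgs* also covers 10.9% of *CaMKI*, where the ecd1 list has no peak. *snoRNA:CD-24* was listed for an ecd1 peak of 0.93 that lies 387 bp away. Genes listed in control only were *CG2316*, a peroxisomal transporter gene (0.96), *CG31998* (1.03), *CG31999* (1.19), *CG32850*, a RING finger gene (0.76), and the lncRNA gene *sphinx* (0.62).

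The genes listed in control only were unevenly spread along the chromosome. In stretches of 200 kb, 7 of the 14 had their middle between 200001 and 400000, where 12 of the 61 genes lie. Over all genes of the tables, 10.9% were listed in control only. This stretch held 10 ecd1 and 13 control peaks, of which 3 in ecd1 and 7 in control met no peak of the other genotype. Such peaks made up 28.9% of ecd1 and 31.4% of control peaks on chromosome 4, and 23.2% and 16.5% over all arms. Another 4 of the 14 genes lay between 1000001 and 1200000, where 11 of the 61 genes lie. Neighbouring genes can be listed for the same peak, so these genes are not separate counts. *Zip102B* and *CG32850* share a control peak in the former stretch, and *Zyx* and *Rfabg* share another in the latter. Between 400001 and 800000, by contrast, none of the 8 and 12 genes of the stretches was listed in control only. These stretches were set after the lists had been seen and carry no test.

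The lists of all chromosome 4 peaks show how the called peaks of the genotypes differed in height, number and extent. The ecd1 list has 90 peaks with a median height of 0.88 (quartiles 0.71 and 1.33) and the control list has 86 with a median of 0.855 (quartiles 0.68 and 1.07). On the other arms together the medians were 1.1 in ecd1 and 0.88 in control, and in the proximal parts 1.01 and 0.85. Chromosome 4 was near the other arms in the number of peaks, with 70.8 per Mb in ecd1 (72.1 elsewhere) and 67.7 per Mb in control (64.8 elsewhere). The proximal parts had 18.7 per Mb in ecd1 and 20.6 in control. Its ecd1 peaks were narrow, with a median width of 959 bp against 1525 bp for its control peaks. The other arms had 1382 bp in ecd1 and 1577 bp in control, and the proximal parts 1116 bp and 1281 bp. In total, ecd1 peaks covered 0.757 times the length of control peaks on chromosome 4, 0.984 times on the other arms and 0.782 times in the proximal parts. On single arms that ratio ran from 0.912 on 2L to 1.02 on X and 3R.

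**Figure D3:**
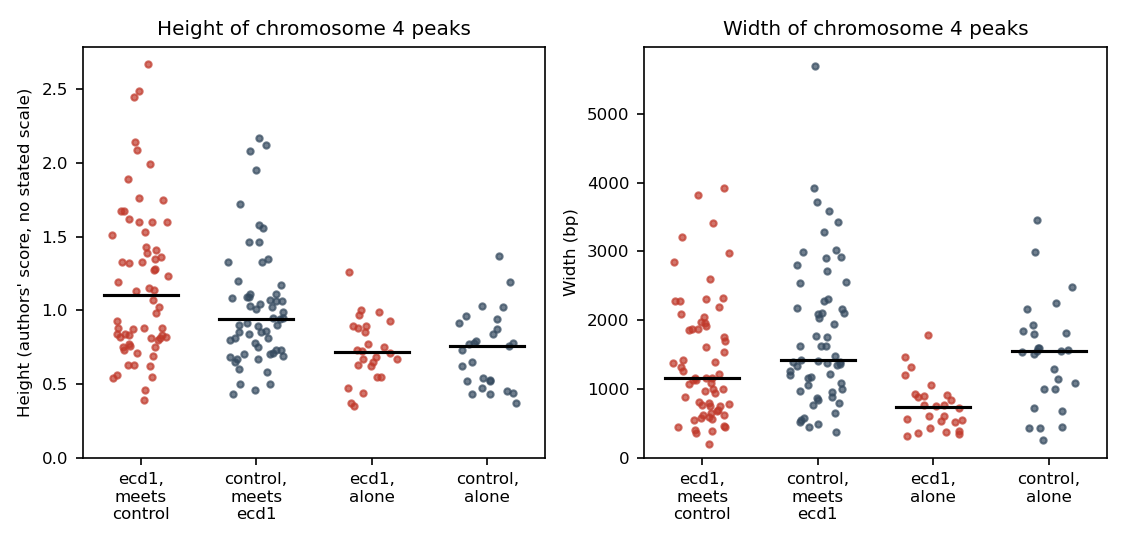
Height (authors' score, left) and width (bp, right) of each chromosome 4 peak, split into ecd1 (red) and control (dark blue) peaks that meet a peak of the other genotype by at least 1 bp or stand alone; points are peaks and black lines medians. Peaks that stand alone have lower medians of height, 0.715 in ecd1 and 0.76 in control, and those of ecd1 are narrow, with a median of 732 bp against 1547 bp in control.

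Of the ecd1 peaks of chromosome 4, 64 (71.1%, 95% Wilson interval 61 to 79.5) met a control peak. On the other arms 76.9% did so, and in the proximal parts 76.2%. Of its control peaks, 59 (68.6%, interval 58.2 to 77.4) met an ecd1 peak, against 83.7% on the other arms and 68.1% in the proximal parts. The intervals cover counting error only. Among the 27 control peaks that stood alone, 0 carried a region that the authors' deposited table gives as higher in control. No such region is listed on chromosome 4, so this 0 is not a separate result. The shares were 31.8% on the other arms and 21.4% in the proximal parts. Among the 26 ecd1 peaks that stood alone, 8 (30.8%) carried a region that the authors' deposited table gives as higher in ecd1. That share was 45.6% on the other arms and 19.7% in the proximal parts. On chromosome 4, 5 control peaks (5.81%, against 6.32% on the other arms and 2.56% in the proximal parts) met more than 1 ecd1 peak. They lay at *pan*, at *zfh2* and at the shared end of *Hcf* and *dati*. In 1 of these, at *zfh2* (4:520557-523834), an ecd1 peak touched the control peak by 1 bp only. No ecd1 peak of chromosome 4 met more than 1 control peak (0 of 90). On the other arms 4.26% did, but in the proximal parts only 1.25%.

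Peaks with identical ends allow the heights of the lists to be set side by side at the same place. There were 19 of them on chromosome 4. Of these, 13 were taller in ecd1 (68.4%, 95% Wilson interval 46.0 to 84.6) and 6 in control, with a median difference of 0.17. On the other arms 85.1% of 1782 such peaks were taller in ecd1, with a median difference of 0.29, and the single arms lay between 83.9% and 87.0%. In the proximal parts 78.3% of 69 were taller in ecd1, with a median difference of 0.17. The largest difference of the 19, 0.86, was at the left-out *ci*, with 1.53 in ecd1 and 0.67 in control. Among the 61 selected genes, *CG1909*, *CG1674* and *Actbeta* had the largest gains in ecd1, of 0.53, 0.45 and 0.45, and *NfI*, *CG11155* and *myo* had the largest in the other direction, of -0.32, -0.29 and -0.28. None of the 6 peaks taller in control carries a region that the authors' deposited table gives as higher in control. That too follows from the absence of such regions on chromosome 4.

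**Figure D4:**
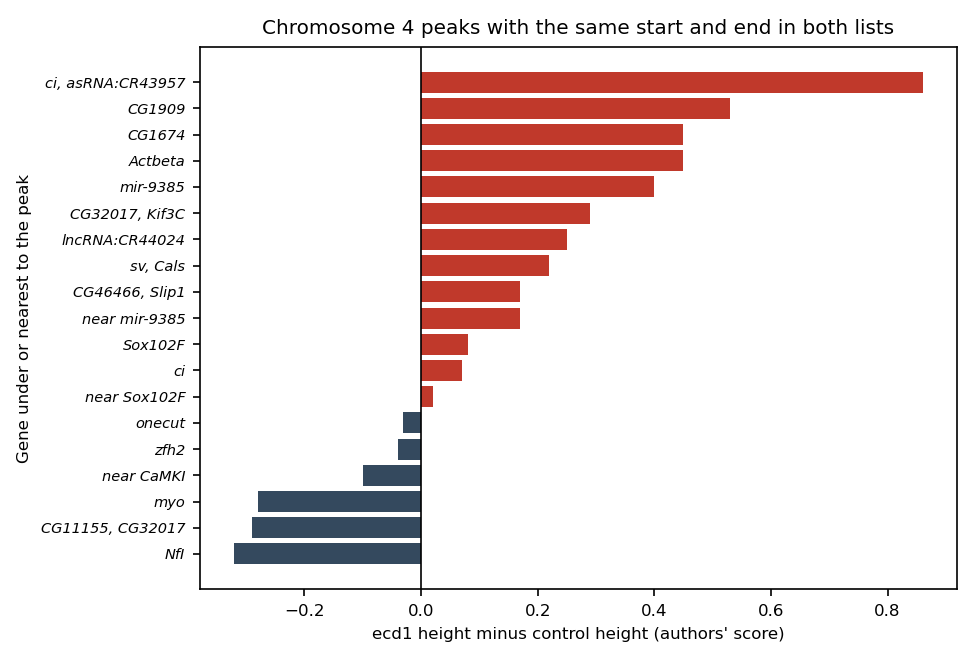
Difference of heights (ecd1 minus control, authors' score) at the 19 chromosome 4 peaks with identical ends in ecd1 and control, named by the gene under the peak or nearest to it. Red bars are taller in ecd1 and dark blue bars taller in control; differences run from 0.86 to -0.32.

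Of the 25 regions higher in ecd1 on chromosome 4, 24 overlapped an ecd1 peak and 16 a control peak. The other 9 lay where no control peak was called, among them those in *ey*, *mGluR*, *Mitf*, *CG11360* and *CG32000*. The share without a control peak was not counted over all 4083 regions higher in ecd1, so these 9 cannot be called particular to chromosome 4. A region higher in ecd1 needs signal in ecd1, so the overlap with ecd1 peaks is not a finding.

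Several well-known genes of the chromosome were in neither gene table. Of 19 such protein-coding genes, 14 had no peak over them in either list, among them *ATPsynbeta* and *ND-49*, which encode subunits of ATP synthase and of the respiratory chain, the calcium pump gene *PMCA*, the kinase gene *Dyrk3* and the semaphorin receptor gene *PlexA*. The other 5 had a peak although the tables do not name them. The Polycomb group gene *pho* lay under a peak of 0.75 in ecd1 (4:1180793-1182105) and 1.11 in control (4:1180793-1182735), and *Cadps*, a gene of vesicle exocytosis, under 1 ecd1 peak of 0.39 and 2 control peaks of 0.5 and 0.79. Counts over the gene tables therefore miss some genes that do lie under peaks.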

How the data were processed

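Libraries were sequenced as paired 50 bp reads, per the labels' protocols, and the build is BDGP6, per the submitters' processing notes; no aligner, peak caller or treatment of replicates is given in the sources used here. Heights, as the authors deposited them, are a score without stated scale, and the FDR deposited by the authors (a q-value) is under 0.01 throughout. Groups follow the genotype labels; for the ecd1 library of Dam alone, the description says Dam-RNase H1, while title and genotype say Dam. The plan allowed for a model per library; as no values per library are held, comparisons between genotypes rest on the authors' calls.

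The members and lists were chosen with earlier results of these data known. Every member may be named, with values for the role lists and for the tallest and most different genes. Gene symbols were looked up in RefSeq genes of Release 6 plus ISO1 MT (all 61 members; 99.6% of 9826 genes), which has no strand or sequence. Overlap was counted from 1 bp on, with Python 3.11.15, pandas 2.3.3, NumPy 2.4.6 and SciPy 1.17.1; the overlap code was tested on simulated intervals. Arm lengths run from the first to the last annotated gene, 1.27 Mb on chromosome 4. Alternatives were an FDR under 0.001, a height of at least 1, a reciprocal overlap of 50%, assignment by gene span, and the left-out genes put back; the split at 10000 bp was chosen after seeing the data.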

Additional observations from a re-analysis of the deposited data

How the results depend on the processing

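The count of 0 genes with a region higher in control was 0 under every alternative run. This outcome was fixed in advance, since no such region is listed on chromosome 4. The count of 22 genes higher in ecd1 was 17 to 33 under 3 other settings. The 33 came with the left-out genes put back and is of 83 genes (39.8%, against 36.1% of the 61). It was 15 among genes of at least 10000 bp, a split chosen after seeing the data. With heights of at least 1 it was 1, since most heights lie below that bound. The median of 0.74 over all regions higher in ecd1 lies below it too. Only *unc-13* remained at that bound, for the region beyond its end that is also assigned to *eIF4G*. The shares of all genes under the FDR and height bounds were not counted, so these drops cannot be called particular to chromosome 4. Genes in both tables numbered 41, and 28, 37 and 55 under 3 alternatives, but 19 with heights of at least 1. The 55 is again of the 83 genes (66.3%, against 67.2% before). With a reciprocal overlap of 50% the share of ecd1 peaks that met a control peak was 55.6% (71.1% before) and that of control peaks 58.1% (68.6%). With an FDR under 0.001, peaks covered 5.99% of chromosome 4 in ecd1 (8.63% before) and 8.32% in control (11.4%), so the excess in control remained. With heights of at least 1 they covered 4.84% in ecd1 and 4.98% in control, so the excess was nearly gone among tall peaks. That bound keeps a larger share of ecd1 peaks than of control peaks, 40.0% against 34.9% on chromosome 4 and 58.0% against 39.5% over all arms. The share of paired peaks taller in ecd1 was 66.0% with 50% reciprocal overlap (68.4% before). No paired analysis was possible because the files hold no values per library, and for the same reason no replicate could be left out. The depth of the libraries is unknown.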
